A study of Mus musculus with 6 samples.

Results

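The Fas death receptor and caspase genes examined here are the 8 genes Fas, Fadd, Cflar, Casp8, Casp9, Apaf1, Xiap and Tnfrsf10b, which were found by the Ensembl identifiers that pair with these symbols among the 39179 identifiers of the expression table. RNA-Seq gave their mRNA levels in germinal center (GC) B cells, sorted as Fas+GL7+, and in resting, or naive, B cells, sorted as Fas-GL7-, both from the Peyer's patches of the ileum, lymphoid tissue where germinal centers form against gut antigens. All mice were littermate WT C57BL/6 females aged 12 weeks, untreated as far as the labels say, and each population was analyzed in 3 replicates that were each a pool of 5 mice, so that the spread between replicates is a spread between pools and not between single animals. Levels are given as TPM, the length-corrected share of a transcript among all transcripts of a pool, scaled to a total of 1000000 and computed from the deposited FPKM. In sorted bulk samples of this kind, fewer cells with a transcript and less of it per cell cannot be told apart.

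Cells can be driven into apoptosis along a death receptor branch and a mitochondrial branch. In the death receptor branch, Fas or the TRAIL receptor encoded by Tnfrsf10b binds its ligand and recruits the adaptor FADD, which gathers caspase-8, and the caspase-8 homologue c-FLIP, encoded by Cflar, competes for the same complex. In the mitochondrial branch, cytochrome c binds APAF1, which assembles the apoptosome that activates caspase-9, and XIAP inhibits caspase-9 and caspases that act after it. GC B cells carry Fas on their surface, are known for a high rate of apoptosis in the selection for antigen affinity, and were sorted here by Fas protein, so Fas is given as a check of the sort and not as a finding.

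Outside Fas, the sensor and initiator of the mitochondrial branch were higher in GC B cells and the initiator of the death receptor branch was lower. Apaf1 was 2.16 times and Casp9 1.81 times its level in naive B cells, whereas Casp8 was 1.61 times higher in naive than in GC B cells. The adaptor Fadd, the inhibitor Cflar and the receptor Tnfrsf10b did not pass the test, and Xiap passed it narrowly. All 8 genes passed the filter of 1 TPM in 3 or more pools and were tested with limma on the log2(TPM + 1) scale among 12785 genes, of which 65.6% differed at an adjusted p under 0.05 (35.5% higher and 30.1% lower in GC B cells). Of the 8 genes, 4 including Fas were called higher, 1 was called lower and 3 were not called, a share close to that of all genes tested. Their median log2 fold change was 0.25, or 0.17 without Fas, beside 0.03 over all genes tested. Without regard to sign, the median log2 fold change over all genes tested was 0.54. The pools of both populations did not overlap for 6 of the 8 genes, beside 70.7% of all genes tested. All GC pools lay above all naive pools for 5 of them, beside 37.8% of all genes, and all naive pools lay above for 1, beside 32.8%. Fas, by whose protein the cells were sorted, is counted in the 6 and in the 5, and its part in these counts is not a finding.

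**Figure D1:**
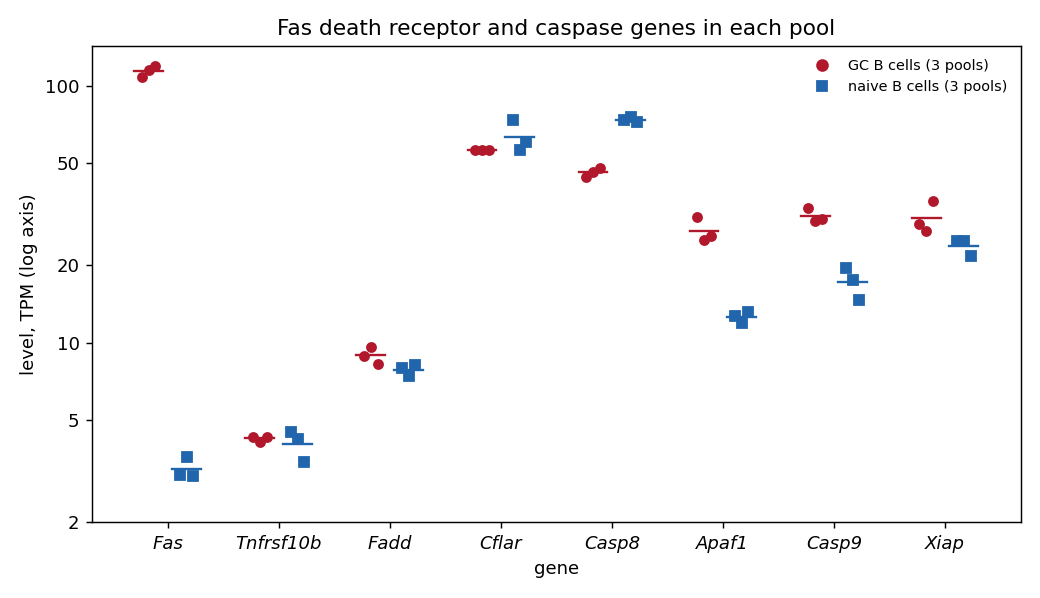
Level of each of the 8 genes in TPM (log axis) in the 3 GC pools (red circles) and the 3 naive pools (blue squares), with a line at the mean of each group. Fas separates the populations most, Apaf1, Casp9 and Xiap lie above and Casp8 below the naive pools in GC B cells, and Tnfrsf10b and Cflar overlap.

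The sort and the makeup of the pools were checked with marker genes. The 5 GC markers (Bcl6, Mybl1, S1pr2, Rgs13 and Gcet2) summed to between 1205 and 1248 TPM in GC and between 49.0 and 54.4 TPM in naive pools, and 4 resting markers (Ccr7, Cd38, Fcer2a and Gpr183) to between 106 and 116 TPM in GC and between 1068 and 1114 TPM in naive pools. The 4 B cell markers (Cd79a, Cd79b, Pax5 and Ms4a1) were high in every pool, between 3317 and 5008 TPM in sum. T cell, NK cell and stromal markers summed to at most 3.51 TPM in any pool, with Ncr1 at 0 in all of them. The 2 plasma cell markers summed to between 5.62 and 7.07 TPM in GC and between 3.69 and 4.59 TPM in naive pools, with Prdm1 called higher (5.01 against 0.955 TPM) and Sdc1 called lower (1.51 against 3.19 TPM) in GC B cells. The 5 myeloid markers summed to between 13.9 and 15.8 TPM in GC and between 8.74 and 14.1 TPM in naive pools. Cd68 was the highest of them in each pool and was called higher in GC B cells (13.1 against 5.88 TPM). It made up most of the sum in the GC pools, but in naive replicate 1 it was at 7.02 TPM beside 5.28 TPM for Lyz2. Lyz2, Itgam and Adgre1 had all naive pools above all GC pools, at no more than 5.28 TPM in any pool. Of these, Lyz2 was tested and not called (adjusted p = 0.0618 in limma), and Itgam and Adgre1 stayed below the minimum for a test. The part of these markers in the results was not tested. The 9 epithelial markers summed to 61.9, 138 and 68.3 TPM in GC replicates 1, 2 and 3 and to 217, 188 and 182 TPM in naive replicates 1, 2 and 3, with 6 of them called lower and 1 (Krt18) called higher in GC B cells. Epithelial RNA therefore moved with the populations, in the same direction as Casp8 and against that of Apaf1 and Casp9, and its part in these results was not tested.

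**Figure D2:**
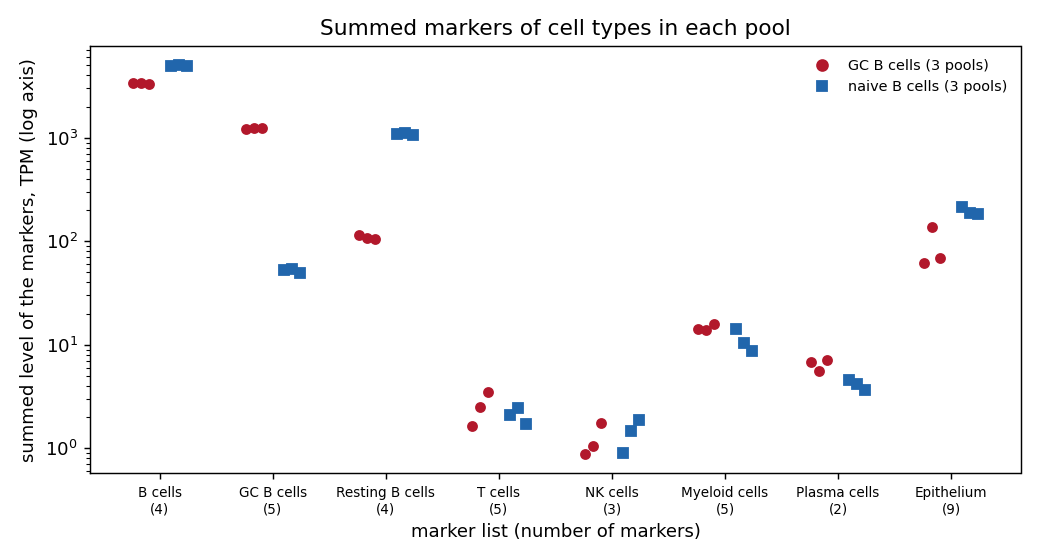
Summed level in TPM (log axis) of the markers of 8 cell types in each GC pool (red circles) and naive pool (blue squares), with the number of markers in parentheses. GC and resting markers part the populations in opposite directions, and the epithelial sum is higher in the 3 naive pools, at 182 to 217 TPM, than in the 3 GC pools.

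Fas (ENSMUSG00000024778), the death receptor used in the sort, spans bases 34290647 to 34327775 of chromosome 19 (RefSeq, GRCm38.p6). GC replicates 1, 2 and 3 had 108, 115 and 119 TPM, and naive replicates 1, 2 and 3 had 3.05, 3.59 and 3.03 TPM. Values of other genes follow the same order of replicates. Every GC pool thus lay far above every naive pool, which is the direction of the sort. The mean in GC B cells was 114 ± 5.55 TPM (SD, n = 3) against 3.22 ± 0.314 TPM (SD, n = 3), a ratio of 35.4. Among all genes tested, Fas ranked at percentile 88.8 by level in GC and at percentile 18.7 in naive B cells.

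Tnfrsf10b (ENSMUSG00000022074; chromosome 14, 69767472 to 69784411), which encodes the receptor for the ligand TRAIL in mice, was low in both populations. The GC pools had 4.31, 4.11 and 4.29 TPM, against 4.48, 4.20 and 3.42 TPM for the naive pools. The groups overlapped, and naive replicate 3 was the lowest pool. The log2 fold change was 0.06 ± 0.12 (SE), with a 95% interval from -0.23 to 0.36 and an adjusted p = 0.672 in limma. Its sign turned without naive replicate 3, to -0.03. Differences within that interval are not excluded by these pools.

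Fadd (ENSMUSG00000031077; chromosome 7, 144578323 to 144582441), the adaptor that links the receptors to caspase-8, had 8.90, 9.63 and 8.29 TPM for the GC pools. The naive pools had 7.97, 7.45 and 8.16 TPM. The 3 GC values lay above the 3 naive values, but the closest pools differed by little, and the log2 fold change of 0.17 ± 0.09 (SE; 95% interval -0.06 to 0.39) had an adjusted p = 0.170 in limma. By mean level, Fadd was the lowest of the 6 genes other than the receptors in both populations.

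Casp8 (ENSMUSG00000026029; chromosome 1, 58795233 to 58847503), the initiator caspase of the death receptor branch, was at 44.0, 46.2 and 47.9 TPM in GC and at 73.5, 76.0 and 72.3 TPM in naive pools. The groups were well apart and each was tight, with a coefficient of variation of 4.24% in GC and 2.54% in naive B cells. The means were 46.0 ± 1.95 and 73.9 ± 1.88 TPM (SD, n = 3 each), and the log2 fold change was -0.67 ± 0.05 (SE; adjusted p = 6.34e-05 in limma). GC replicate 2, which had the highest epithelial sum of the GC pools, was the middle one of the 3 for Casp8, and it was the lowest of the 3 for Apaf1 and for Casp9. This is the order of only 3 pools, and the part of epithelial RNA in these levels was not tested.

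Cflar (ENSMUSG00000026031; chromosome 1, 58711311 to 58758884) encodes c-FLIP, the catalytically inactive relative of caspase-8. It lies 36348 bases before Casp8 on the same chromosome, with the RefSeq gene Gm39646 between them. Its level was 56.4, 56.4 and 56.5 TPM in the GC pools and 73.5, 56.0 and 60.4 TPM in the naive pools. The GC pools were nearly equal, whereas naive replicate 1 stood above the others and naive replicate 2 lay just below all GC pools. The log2 fold change was -0.15 ± 0.10 (SE; 95% interval -0.40 to 0.09; adjusted p = 0.222 in limma), and it was -0.04 without naive replicate 1. Of these nearby genes, Casp8 passed the test and Cflar did not, and the difference between them was tested as a ratio.

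Apaf1 (ENSMUSG00000019979; chromosome 10, 90989311 to 91082743) encodes the scaffold of the apoptosome. It was at 30.8, 25.1 and 26.0 TPM in GC and at 12.7, 11.9 and 13.2 TPM in naive pools. All GC pools lay above all naive pools, with GC replicate 1 the highest. The means were 27.3 ± 3.09 and 12.6 ± 0.646 TPM (SD, n = 3 each), and the log2 fold change was 1.05 ± 0.10 (SE; adjusted p = 0.000132 in limma). Apaf1 overlaps Gm25390 over 101 bases, for which no value was used here, and shares 7 bases with Ikbip, which was called lower in GC B cells, with 1.64 ± 0.259 TPM against 4.44 ± 0.381 TPM (SD, n = 3 each).

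Casp9 (ENSMUSG00000028914; chromosome 4, 141793612 to 141815978), the initiator caspase of the apoptosome, had 33.4, 29.9 and 30.4 TPM for the GC pools. The naive pools had 19.6, 17.6 and 14.6 TPM. Here too the populations did not overlap, and the naive pools varied more than the GC pools (14.6% against 6.07%). The means were 31.2 ± 1.89 and 17.3 ± 2.52 TPM (SD, n = 3 each), with a log2 fold change of 0.83 ± 0.12 (SE; adjusted p = 0.000882 in limma). The gene overlaps Cela2a over 1025 bases, and Cela2a was listed at 0 in every pool.

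Xiap (ENSMUSG00000025860; chromosome X, 42059613 to 42109664), the inhibitor of caspase-9, was at 29.0, 27.2 and 35.5 TPM in GC and at 24.9, 24.9 and 21.7 TPM in naive pools. GC replicate 3 was the highest and naive replicate 3 the lowest pool, and the groups did not overlap. The log2 fold change of 0.34 ± 0.12 (SE) had an adjusted p = 0.0394 in limma. This call was lost without GC replicate 1 (adjusted p = 0.0646), without GC replicate 3 (0.0884, with a log2 fold change of 0.23), and without naive replicate 1, 2 or 3 (0.0638, 0.0661 and 0.108), and also with no filter on low values (0.0632). Over all 13 alternatives its adjusted p in limma lay between 0.0299 and 0.108.

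The order of the 8 levels differed between the populations. In GC B cells, Fas was highest, followed by Cflar and Casp8, then by Casp9, Xiap and Apaf1, whose pools overlapped from one to the next, and then by Fadd and Tnfrsf10b. In naive B cells, Casp8 (73.9 TPM) and Cflar (63.3 TPM) were highest with overlapping pools, followed by Xiap (23.8 TPM), Casp9 (17.3 TPM), Apaf1 (12.6 TPM) and Fadd (7.86 TPM), each with its pools apart from the next, and by Tnfrsf10b and Fas, which overlapped. TPM values are per length, so levels of different genes can be set beside each other, as far as the transcript lengths assigned by RSEM hold.

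Ratios within a pool were computed next, because they do not change with the scaling of that pool. Casp8 exceeded Casp9 by a factor of 1.32, 1.55 and 1.58 in the GC pools and of 3.75, 4.32 and 4.95 in the naive pools, the largest difference among the 6 ratios examined (-1.55 on the log2 scale). The ratio of the inhibitor Cflar to Casp8 was 1.28, 1.22 and 1.18 in GC and 0.999, 0.738 and 0.835 in naive pools, so that Cflar exceeded Casp8 in all GC pools and in no naive pool. Fadd per Casp8 was 0.195 ± 0.0190 in GC and 0.106 ± 0.00762 in naive B cells (SD, n = 3 each). The ratio of Xiap to Casp9 went the other way, with 0.867, 0.911 and 1.17 in GC and 1.27, 1.41 and 1.49 in naive pools. Cflar per Fadd was also lower in GC, at 6.33 ± 0.481 against 8.05 ± 1.02 in naive B cells (SD, n = 3 each). For these 5 ratios the pools did not overlap, and the two-sided exact permutation test gave p = 0.1, the smallest value that 3 against 3 pools allow, with a Benjamini-Hochberg adjusted p of 0.12 over the 6 ratios. This test cannot pass 0.05 with 3 against 3 pools. The ratio of Apaf1 to Casp9 overlapped, at 0.924, 0.841 and 0.854 in GC and 0.647, 0.678 and 0.905 in naive pools (log2 difference 0.25; exact permutation p = 0.3, adjusted p = 0.3).

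**Figure D3:**
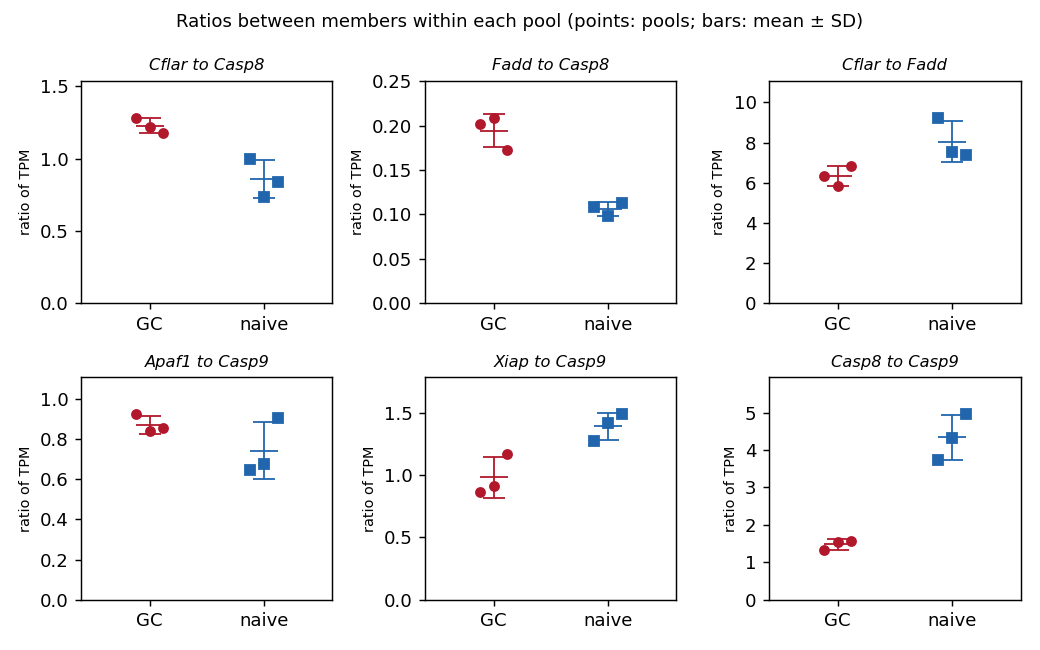
Ratio of TPM between a pair of genes in each GC pool (red circles) and naive pool (blue squares), with bars for mean ± SD over 3 pools and axes from 0. Casp8 to Casp9 lies between 1.32 and 1.58 in GC and between 3.75 and 4.95 in naive pools, Cflar to Casp8 is above 1 in the 3 GC pools and below 1 in the 3 naive pools, and Apaf1 to Casp9 overlaps.

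The sequence before the start of the genes is shown for the 2 genes that rose most outside Fas, for the gene that fell, and for Fas. RefSeq promoter windows (GRCm38.p6) matched 7 of the 8 genes by symbol, and the 250 bases before the listed start are printed 5′ to 3′ on the strand of the gene, with GGGCGG or its complement CCGCCC in capitals. This motif, the GC box known to bind Sp1, was chosen after the sequences were seen. The windows are Apaf1 at chr10:91082744-91082993 on the minus strand, and Casp9 at chr4:141793362-141793611, Casp8 at chr1:58802252-58802501 and Fas at chr19:34290409-34290658 on the plus strand. That of Casp8 belongs to a start inside the span of the gene, which begins at base 58795233. Its start is thus unlike those of Apaf1 and Casp9, whose windows end directly before the span. The Fas window runs slightly into its span, which begins at base 34290647. Among the windows not printed, that of Cflar lies partly and those of Xiap lie wholly inside the span.
Apaf1: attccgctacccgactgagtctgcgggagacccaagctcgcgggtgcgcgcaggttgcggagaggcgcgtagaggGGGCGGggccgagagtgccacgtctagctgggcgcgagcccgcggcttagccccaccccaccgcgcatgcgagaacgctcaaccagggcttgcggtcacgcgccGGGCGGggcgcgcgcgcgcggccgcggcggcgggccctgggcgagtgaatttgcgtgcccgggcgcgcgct
Casp9: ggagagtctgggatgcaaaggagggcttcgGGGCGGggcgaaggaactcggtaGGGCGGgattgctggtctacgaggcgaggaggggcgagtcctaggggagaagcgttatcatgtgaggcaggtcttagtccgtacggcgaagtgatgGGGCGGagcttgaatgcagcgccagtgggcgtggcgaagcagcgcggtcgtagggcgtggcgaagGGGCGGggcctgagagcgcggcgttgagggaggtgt
Casp8: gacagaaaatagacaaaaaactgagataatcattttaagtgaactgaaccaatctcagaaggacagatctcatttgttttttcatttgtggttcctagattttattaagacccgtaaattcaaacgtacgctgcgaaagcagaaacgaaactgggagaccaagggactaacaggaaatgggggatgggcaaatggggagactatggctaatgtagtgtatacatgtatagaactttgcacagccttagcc
Fas: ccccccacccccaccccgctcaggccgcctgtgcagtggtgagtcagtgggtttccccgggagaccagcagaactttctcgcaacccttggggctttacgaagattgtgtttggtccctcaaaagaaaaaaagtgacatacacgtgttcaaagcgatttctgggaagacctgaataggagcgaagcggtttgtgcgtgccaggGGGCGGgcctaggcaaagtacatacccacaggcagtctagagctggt
The window of Casp9 held 4 matches to GGGCGG, that of Apaf1 held 2, that of Fas held 1 and that of Casp8 held none, whereas 32.7% of all 32851 windows held at least 1 match on either strand. CG dinucleotides numbered 42 in Apaf1, 25 in Casp9, 11 in Fas and 5 in Casp8, beside a median of 6 over all windows. The letters TATAAA (either strand) were found in none of these 4 windows and in 12.4% of all windows. Of the windows not printed, Fadd held 2 matches to GGGCGG and 19 CG dinucleotides, and Cflar held no match to GGGCGG and 7 CG dinucleotides. TATAAA was found 2 times in the window of Cflar and not in that of Fadd. The 3 windows of Xiap held 1, 1 and 0 matches to GGGCGG and 13, 1 and 1 CG dinucleotides, and the third of them held TATAAA once. These are descriptions of letters in short windows, with no test.

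A list of 54 other genes of the pathway with a value was examined by role. Of these, 43 were tested, and 16 were called higher, 15 lower and 12 were not called in GC B cells. This is 72.1% called, beside 65.6% of all genes tested, and the median log2 fold change was -0.04 beside 0.03. The list thus moved in both directions.

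**Figure D4:**
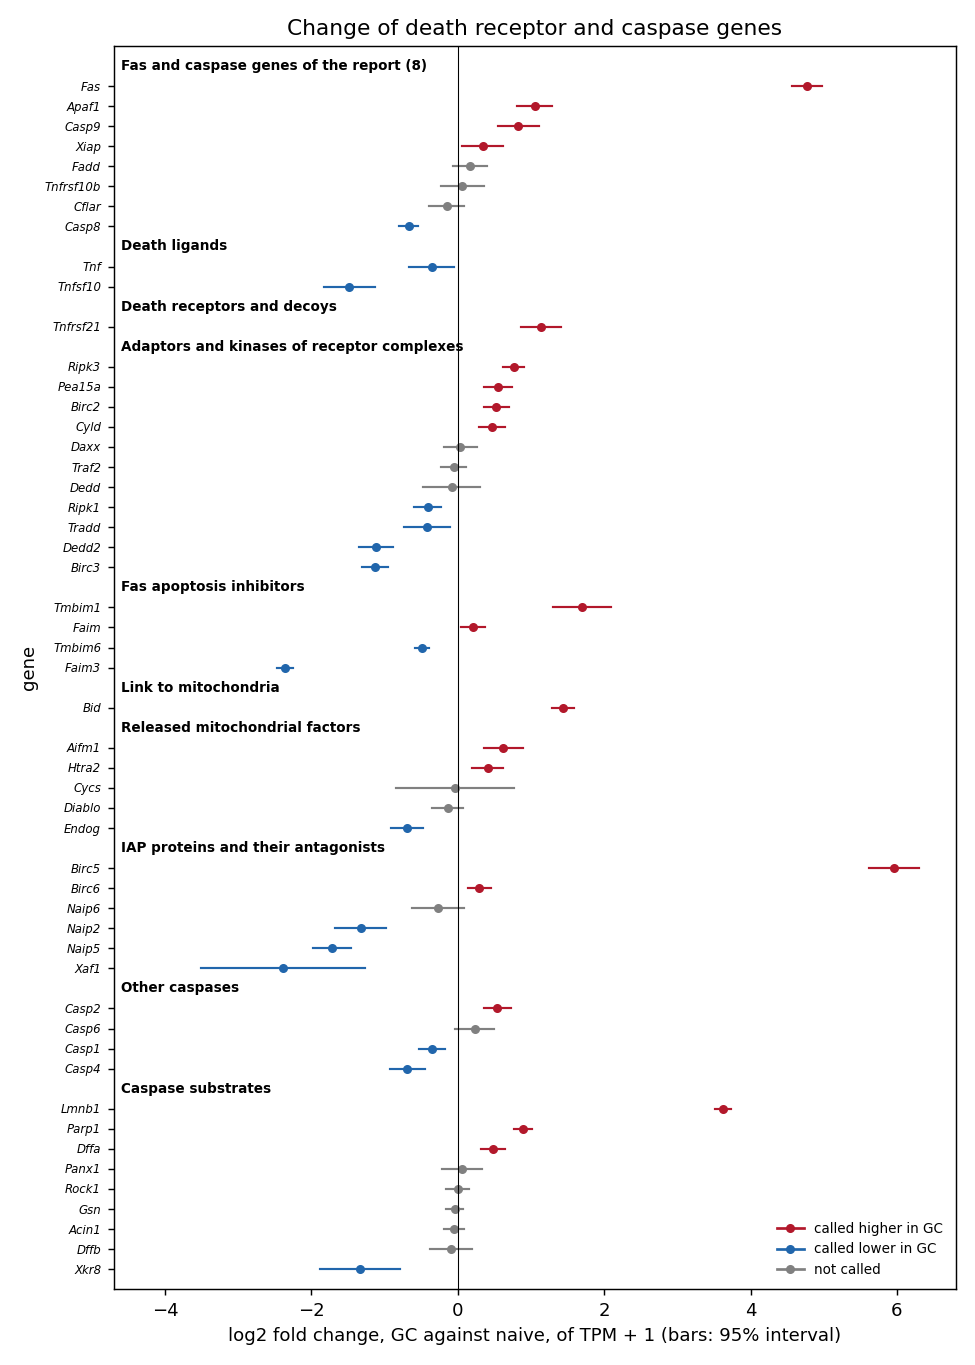
Log2 fold change of TPM + 1 between GC and naive B cells (limma, bars for the 95% interval) for the 8 genes and for the 43 tested genes of the pathway list by role, red where called higher in GC, blue where called lower and grey where not called. Among the 8 genes Fas, Apaf1, Casp9 and Xiap are red and Casp8 is blue, and in the list Birc5 and Lmnb1 lie farthest to the right and Xaf1 and Faim3 farthest to the left.

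The death ligands were low or lower in GC B cells. Fasl, the ligand of Fas, was listed at 0 in 5 pools and at 0.0675 TPM in naive replicate 1. Both ligands tested were called lower. Tnf, the ligand of the TNF receptors, named here after its values were seen, was close to the threshold, with 21.6, 25.4 and 21.5 TPM for GC and 24.7, 31.6 and 32.7 TPM for naive pools, which overlapped (log2 fold change -0.36 ± 0.13, SE; adjusted p = 0.0442 in limma). Tnfsf10, which encodes TRAIL, was at 0.138, 0.374 and 0.125 TPM in GC and at 2.55, 2.24 and 2.34 TPM in naive pools (log2 fold change -1.48 ± 0.14, SE; adjusted p = 0.000156 in limma). The only other death receptor or decoy with enough signal to be tested was Tnfrsf21, known as death receptor 6, which rose from 1.88 ± 0.115 TPM in naive to 5.35 ± 0.475 TPM in GC B cells (SD, n = 3 each; adjusted p = 0.000178 in limma). Of 5 such genes on the list, 4 stayed below the minimum.

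Among the 11 adaptors and kinases of receptor complexes that were tested, 4 were called higher, 4 lower and 3 were not called. The largest changes were decreases. Birc3, a ubiquitin ligase of the TNF receptor complex and a known target of NF-kB, was at 139 ± 10.1 TPM in GC and 305 ± 22.2 TPM for naive B cells (SD, n = 3 each; log2 fold change -1.13 ± 0.08, SE; adjusted p = 2.88e-05 in limma). Dedd2, a nuclear protein with a death effector domain, was at 20.4, 22.9 and 22.5 TPM for GC against 48.2, 54.6 and 43.9 TPM for naive pools (log2 fold change -1.12; adjusted p = 8.57e-05 in limma).

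The inhibitors of Fas apoptosis were listed together with proteins of the Bax inhibitor motif family. Of 4 tested, 2 were called higher (Faim and Tmbim1) and 2 lower (Faim3 and Tmbim6). Faim3, first described as an inhibitor of Fas signaling and now known as the Fc receptor for IgM, was at 199, 193 and 213 TPM in GC and at 1039.8, 1027 and 1041 TPM in naive pools. It was therefore 5.14 times higher in naive B cells (log2 fold change -2.36 ± 0.05, SE; adjusted p = 2.28e-07 in limma). Tmbim1, of the family of Bax inhibitor motif proteins, rose from 1.76 ± 0.506 TPM to 7.87 ± 0.674 TPM in GC B cells (SD, n = 3 each; adjusted p = 0.000159 in limma).

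The link between both branches was higher in GC B cells. Bid, the BH3-only protein that caspase-8 cleaves to engage mitochondria, was at 100.1, 102 and 93.4 TPM in GC and at 36.9, 36.5 and 33.5 TPM in naive pools. Its groups were far apart, with a log2 fold change of 1.44 ± 0.06 (SE; adjusted p = 3.94e-06 in limma), so that Bid was 2.76 times higher in GC B cells where Casp8 was lower. Of 5 factors released from mitochondria, 2 were called higher, 1 was called lower and 2 were not called. The latter were Cycs, or cytochrome c, with 15.5, 30.9 and 37.1 TPM in GC and 32.0, 20.5 and 29.8 TPM in naive pools, and Diablo, the antagonist of XIAP, with 38.5, 39.8 and 36.5 TPM in GC and 45.3, 44.4 and 37.4 TPM in naive pools. Cycs varied too widely for a statement on its level, since the 95% interval of its log2 fold change ran from -0.85 to 0.76 (adjusted p = 0.921 in limma), and that of Diablo ran from -0.35 to 0.07 (adjusted p = 0.205 in limma).

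Of the 4 caspases of the list that were tested, 1 was called higher, 2 were called lower and 1 was not called in GC B cells, with a median log2 fold change of -0.06.

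Of the 6 tested IAP proteins and antagonists, 2 were called higher, 3 lower and 1 was not called. The member that rose most, Birc5, encodes survivin, which is also a component of the chromosomal passenger complex of mitosis, and was at 165 ± 2.08 TPM in GC and 1.70 ± 0.527 TPM for naive B cells (SD, n = 3 each; adjusted p = 3.61e-07 in limma). Xaf1, an antagonist of XIAP induced by interferon, was at 1.87, 9.16 and 7.30 TPM in GC and at 28.3, 36.6 and 30.7 TPM in naive pools (log2 fold change -2.39 ± 0.46, SE; adjusted p = 0.00391 in limma). Naip5 and Naip2, known as sensors of bacterial proteins, were also called lower (log2 fold changes -1.72 and -1.32; adjusted p = 2.08e-05 and 0.000271 in limma), with the limit that reads of these near-identical paralogs are divided by the model of RSEM.

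Of 9 genes for caspase substrates or a partner of one (Dffb, the partner of Dffa), 3 were called higher, 1 was called lower and 5 were not called. Lmnb1, the nuclear lamin B1, was at 359 ± 11.9 TPM in GC and 28.2 ± 0.424 TPM for naive B cells (SD, n = 3 each; log2 fold change 3.62 ± 0.04, SE; adjusted p = 7.61e-08 in limma). Xkr8, a scramblase that exposes phosphatidylserine after cleavage by caspases, was at 0.923, 1.11 and 2.31 TPM in GC and at 4.74, 4.68 and 5.69 TPM in naive pools (log2 fold change -1.34 ± 0.23, SE; adjusted p = 0.00213 in limma).

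Genes with the most similar profile were found by the root mean square difference over the 6 pools between log2(TPM + 1) profiles centered on their own mean, as a description with no test. The 5 genes nearest to Fas were 2510009E07Rik (0.0453 log2 units), Plxnb2 (0.0785), Espl1 (0.0901), Neil1 (0.0929) and Gm16556 (0.0946). Plxnb2, a semaphorin receptor, was at 226, 248 and 229.5 TPM in GC and at 7.03, 7.30 and 6.82 TPM in naive pools, and Neil1, a DNA glycosylase, at 606 to 638 and 20.3 to 27.9 TPM. The other 3 were near or at 0 in naive B cells, where the added 1 TPM sets the log2 value, so they are alike on this scale only and their ratios of TPM differ from that of Fas. 2510009E07Rik was at 26.6 to 31.0 TPM in GC and 0.0775 to 0.137 TPM in naive pools, Espl1 at 32.1 to 34.3 and 0.162 to 0.168 TPM, and Gm16556 at 21.5 to 26.5 TPM in GC and listed at 0 in all naive pools. The gene nearest to Casp8 was Nfkbie, an inhibitor of NF-kB, with 48.6, 51.3 and 53.6 TPM in GC and 81.0, 82.6 and 81.1 TPM in naive pools (0.0145 log2 units). The nearest genes of the others were Eftud2 for Casp9 (0.0482), Tbc1d16 for Apaf1 (0.0519), Ncoa5 for Xiap (0.0507), Gcc1 for Cflar (0.0518), 2410006H16Rik for Fadd (0.0257) and Zc3h13 for Tnfrsf10b (0.0160). Tbc1d16 was at 1.53, 1.05 and 1.17 TPM in GC and at 0.0135, 0.0547 and 0.0645 TPM in naive pools, so its likeness to Apaf1 also holds only with the added 1 TPM. Each likeness rests on 6 pools in 2 groups.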

How the data were processed

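RNA-Seq libraries of 3 GC and 3 naive B cell pools were analyzed. The authors demultiplexed reads with Casava 1.8, removed adapters with cutadapt 1.9 and quantified them with RSEM 1.2.25 on the mouse transcriptome of build NCBIm38, and deposited FPKM values with 2 decimals for 39179 Ensembl identifiers. Whether strand was used was not given in the sources used here. Reads shared by similar genes are divided by a model. FPKM was divided by the pool total and multiplied by 1000000 (TPM). Pools of the same number were not stated to share mice and were not paired. The files hold no counts. From FPKM steps of single-transcript genes of 250 to 900 bases, depth was about 9600000 to 16100000 reads per pool, but at most 71.4% of values lay within 0.1 of a whole read, so no count test was used, and weakly expressed genes are less precise.

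Genes that reached 1 TPM in 3 or more pools were tested on log2(TPM + 1), which understates changes of low genes, with limma 3.58.1 in R 4.3.3 (eBayes with a trend, two-sided, Benjamini-Hochberg adjusted p under 0.05 over all 12785 genes). P-values measure the spread between pools of mice. Ratios were compared with an exact permutation test. Alternatives were the pseudocount, filters, FPKM as deposited, quantile and median scaling, a fit with the replicate number as a block, and the omission of each pool in turn. Other steps used Python 3.11.15 with scipy 1.17.1. A table of gene names paired 33398 identifiers with symbols. Positions and promoters are from RefSeq on GRCm38.p6. The 8 genes and the lists were chosen with earlier results of these data known. Named genes of the list were, by role, those called with an absolute log2 fold change of at least 1 (at most 4), plus Fasl, Bid, Cycs and Diablo, and the genes nearest in profile. Tnfrsf22, with 2 identifiers, and the marker Ighd were not analysed here, and a few other genes of the lists are not reported here and were left out of all counts and sums of the lists.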

Additional observations from a re-analysis of the deposited data

How the results depend on the processing

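Of 229 values recomputed under alternatives, 221 kept their direction and side of the threshold, stayed within 1.5 times for counts, or kept their direction alone for ratios. Ratios whose pools did not overlap could not change direction when a pool was left out, so this total overstates stability. All values that changed were of Xiap or Tnfrsf10b. Calls of Apaf1, Casp9 and Casp8 held in all 13 alternatives, with log2 fold changes of 0.96 to 1.11, 0.72 to 0.92 and -0.80 to -0.64, and Fadd and Cflar were called in none. Xiap lost its call without a filter on low values (log2 fold change 0.34, adjusted p = 0.0632 in limma), with the replicate block (0.34, adjusted p = 0.0874 in limma), and without 5 of the 6 pools (0.23 to 0.37). Without GC replicate 2 it kept the call, at 0.42. Without the filter more genes enter the adjustment, and for the other settings the cause was not tested. Tnfrsf10b ranged from -0.028 to 0.13 over the pools left out, turned its sign without naive replicate 3 (-0.0279), and was not tested under the minimum of 5 TPM. Quantile normalization moved the median log2 fold change of all genes by -0.09 and centering on the median gene by -0.02, and neither turned the direction of any of the 8 genes.

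Pools with the same number deviated together only weakly (r = 0.157, 0.055 and 0.032 for numbers 1, 2 and 3, across 8058 genes that are not independent). GC replicates 1 and 2 correlated best with the naive replicate of their own number, and GC replicate 3 with naive replicate 2 (0.087). These values do not settle whether the pools shared mice, and the numbers were not taken as pairs. With the replicate block, 7960 genes were called in place of 8392. The block leaves the mean differences of the ratios unchanged by construction, so it is no check of their direction. Depth limits statements on Fasl, the other genes under 1 TPM, and Tnfrsf10b.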

Other observations

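Genes of necroptosis and of inflammatory caspases were on the list and were looked at after their values had been seen. Ripk3, the kinase that executes necroptosis when caspase-8 is inhibited, was at 56.4, 59.0 and 55.7 TPM in GC and at 34.7, 33.1 and 31.9 TPM in naive pools (log2 fold change 0.76 ± 0.06, SE; adjusted p = 4.85e-05 in limma). Ripk1, its partner, went the other way, from 15.6 ± 0.661 TPM in naive to 11.4 ± 0.327 TPM in GC B cells (SD, n = 3 each; adjusted p = 0.00294 in limma). Mlkl, which encodes the pore-forming substrate of RIPK3, was at 0.138 TPM in GC replicate 1, listed at 0 in GC replicates 2 and 3, and at 0.189, 0.328 and 0.219 TPM in the naive pools, so it stayed below the minimum for a test in both populations.

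Casp1 and Casp4, the inflammatory caspases, were called lower in GC B cells, with 40.5 ± 2.84 against 52.1 ± 2.91 TPM for Casp1 and 14.4 ± 1.04 against 24.0 ± 2.40 TPM for Casp4 (SD, n = 3 each; adjusted p = 0.00551 and 0.000984 in limma).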
